A study of Mus musculus with 96 samples.

Results

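Heat shock and chaperone genes were followed in single mouse cells on the way from pre-haematopoietic stem cells to fetal liver haematopoietic stem cells. The members were the 10 genes named Hspa1a, Hspa1b, Hsph1, Dnajb1, Hsp90aa1, Hsp90ab1, Hspa8, Hspa5, Hspd1 and Hspe1, out of 19836 genes in the count table, and all 10 had reads. They were picked by name, and the first 5 were treated as inducible and the other 5 as constitutive or organelle chaperones.

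Cells of C57BL/6 embryos were sorted 1 per well and sequenced from full-length cDNA, with 96 cells in 4 groups. At E11.5 (E for embryonic day), 48 cells came from the aorta-gonad-mesonephros region (AGM) and 16 from the yolk sac, both labelled as pre-HSCs and sorted as Ter119- CD11b- CD144+ c-kit+ EPCR+. At E12.5, 16 liver cells labelled as HSCs were sorted as Ter119- Sca-1+ c-kit+ EPCR+. At E14.5, 16 liver cells were sorted as Ter119- Sca-1+ c-kit+ CD48- CD150+. Age, tissue and sort gate therefore change together between the E11.5 and liver groups and cannot be told apart. The groups share the strain, and no genotype or treatment is given. Since no animal or litter is named, a group counts as 1 sample however many cells it holds, no test between groups was made, and the intervals below cover counting error only.

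The pooled libraries held 60280645 reads for AGM, 22306075 for yolk sac, 19053123 for E12.5 liver and 20585452 for E14.5 liver, with 250235 to 1926882 reads per cell. The median cell had a read in 5522.5 genes for AGM, 5349.5 for yolk sac, 4036 for E12.5 liver and 4839 for E14.5 liver. Cell 8 of the E12.5 group stood apart with 1011 genes. The 8 haematopoietic markers had reads in all 4 groups, while the 4 hepatocyte markers measured had 0 reads in every E14.5 cell. The summed level of 6 erythroid markers reached 3689 CPM (reads of a gene per 1000000 reads) in an E12.5 cell and 186441.5 in an E14.5 cell, against a highest value of 122.8 in AGM, and macrophage markers reached 13667 CPM in an E12.5 cell. The medians and ratios of the members in the liver groups were also computed without E12.5 cell 8 and E14.5 cells 3, 8, 13 and 16, which hold few genes or much globin RNA.

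Molecular chaperones bind unfolded proteins and help them fold. HSP70 proteins work in cycles of ATP hydrolysis that J-domain proteins stimulate and exchange factors reset, and they pass some clients to HSP90. When unfolded protein accumulates in the cytosol, heat shock factor 1 (HSF1) switches on the inducible genes through heat shock elements, which are inverted repeats of the unit nGAAn. The endoplasmic reticulum (ER) has its own sensors that raise Hspa5 through the ER stress response element, and mitochondria fold imported proteins in a chamber made by HSPD1 and its lid HSPE1.

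The members' promoters were searched for these elements, and 7 of the 10 had an entry among the RefSeq promoter sequences (GRCm38.p6, the assembly that mm10 names). The 250 bases before the start were searched on both strands for the 3-unit heat shock element (GAA, TTC and GAA, each separated by 2 bases), for its 2-unit parts GAANNTTC and TTCNNGAA, and for the ER stress response element (CCAAT and CCACG separated by 9 bases). Over the same 250 bases, these were present in 0.466%, 6.69%, 7.17% and 0.113% of 32851 promoters, and the 2-unit matches nest inside each 3-unit match. The stretches with a match are shown 5′ to 3′ along the gene's strand, with the matched bases in capitals.
Hspa1a: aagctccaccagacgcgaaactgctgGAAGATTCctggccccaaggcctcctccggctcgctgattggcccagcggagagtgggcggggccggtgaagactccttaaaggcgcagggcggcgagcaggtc
Hspa1b: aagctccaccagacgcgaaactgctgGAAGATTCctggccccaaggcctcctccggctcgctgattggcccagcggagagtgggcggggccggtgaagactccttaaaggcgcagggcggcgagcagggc
Hsph1: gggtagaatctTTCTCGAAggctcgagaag
Hspe1: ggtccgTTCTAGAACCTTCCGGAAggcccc
Hspa5: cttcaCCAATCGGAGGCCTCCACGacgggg
The first pair shows that Hspa1a (chr17:34972157-34972286, minus strand) and Hspa1b (chr17:34959239-34959368, minus strand) have almost the same promoter, with the 2-unit match 104 to 97 bases before each start. Their 250 upstream bases differed at 3 positions. In Hsph1 (chr5:149636351-149636380, minus strand) a 2-unit match lay 33 to 26 bases before the RefSeq start. In Hspe1 (chr1:55088053-55088082, plus strand) the capitals are 2 overlapping 3-unit matches, 89 to 72 bases before the start. The same bases lie before a second RefSeq start of Hspd1, which runs the other way on the opposite strand. Hspa5 (chr2:34772020-34772049, plus strand) carried the ER stress response element 65 to 47 bases before its RefSeq start. In GENCODE the Hspa5 and Hsph1 genes start further upstream, so their matches lie inside the gene there. No match was found in the Dnajb1 window, nor in the Hspd1 window nearest its GENCODE start, which says only that these letters are not in those 250 bases.

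Across the 4 groups the members showed one main pattern. All 10 were at a lower level in E12.5 liver than in AGM cells, beside 57.6% of the 15239 genes with at least 30 reads. The yolk sac was above AGM in pooled level for 8 of the 10, by a small margin for most, beside 38.2% of those genes. Among 1213 genes with a read in at least 90% of cells, 548 were higher there. Of the 8, Hspa1b was below AGM without yolk sac cell 12 (log2 ratio -0.93), and Hsph1 without yolk sac cell 4 (-0.07). At E14.5 the 8 members with liver reads split into 5 lower and 3 higher than at E12.5, beside 45.5% and 40.8%. Of the 1213 widely detected genes 63.4% were lower, so the split is near that share. Hspa1a and Hspa1b, the strictly inducible HSP70 genes, had reads in 12 AGM cells and 2 yolk sac cells and in 0 of the 32 liver cells. The 10 genes together held 1.19% of all AGM reads, 1.42% of yolk sac reads, 0.816% of E12.5 reads and 0.729% of E14.5 reads.

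**Figure D1:**
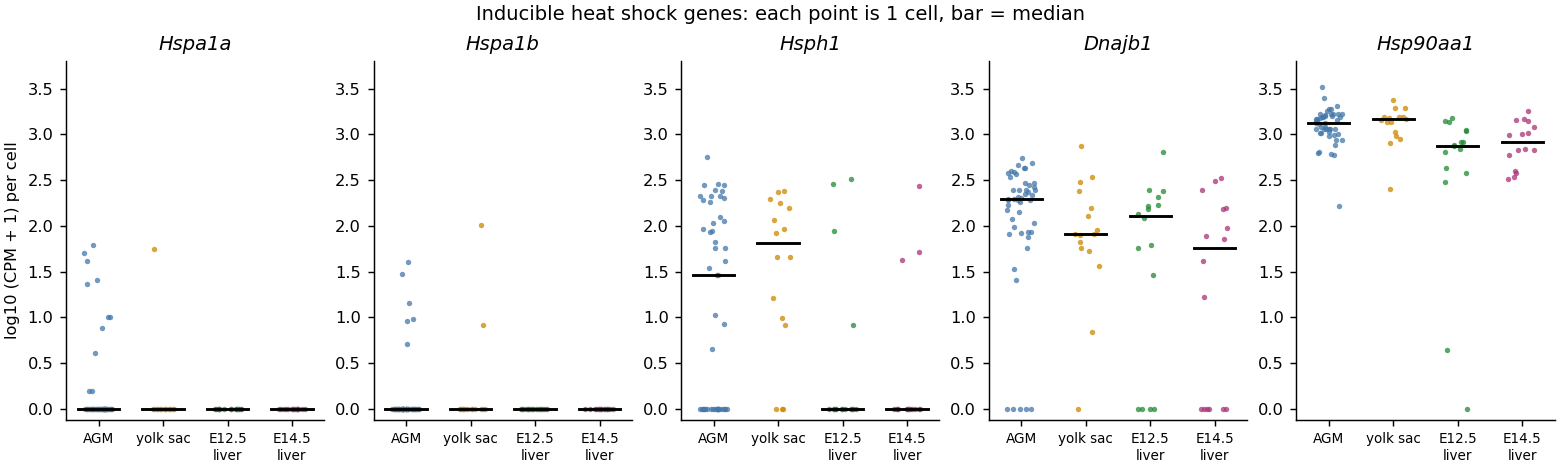
Level of the 5 inducible heat shock genes in each cell (log10 of CPM with 1 added, each point 1 cell, bar the group median). Hspa1a and Hspa1b have reads in 12 AGM and 2 yolk sac cells and in 0 liver cells, and the median of Hsph1 is 0 in both liver groups.

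Hspa1a and Hspa1b encode nearly the same inducible cytosolic HSP70. Reads of Hspa1a were found in 11 of the 48 cells from AGM, 1 of the 16 from yolk sac and 0 of the 16 in each liver group. Its highest AGM cells were cell 23 with 61.1 CPM, cell 21 with 49.1 CPM and cell 1 with 39.8 CPM, and its median was 0 in every group. Hspa1b had a read in 6 AGM cells, with 38.9 CPM in cell 1 as the highest, and in 2 yolk sac cells, with 100.4 CPM in cell 12 and 7.28 CPM in cell 1. Reads were thus confined to a minority of cells, and 5 AGM cells and 1 yolk sac cell held reads of both genes.

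Because the transcripts of Hspa1a and Hspa1b were 94.2% identical over 2713 aligned bases, and 66.3% and 62.3% of their 50-base stretches occur in another gene, the split between them is uncertain and their sum is the safer value. The sum was 7.25 CPM in AGM (95% Poisson interval 6.59 to 7.96), 6.50 CPM in yolk sac (5.49 to 7.65) and 0 in both liver groups. The share of cells with a read of either was 25% in AGM (Clopper-Pearson interval 13.6 to 39.6%), and in yolk sac the 2 of 16 cells gave an interval of 1.55 to 38.3%. In each liver group 0 of 16 cells gave an interval of 0 to 20.6%, beside a limit of 18.75% from a floor of 3 cells. The AGM level of the sum was 46.04-fold a floor of 3 reads over the E12.5 group. That value covers the counting of reads, which came from 12 of the 48 AGM cells. It is no lower limit on the difference, since the intervals on the share of cells overlapped between AGM and each liver group. In the yolk sac, cell 12 alone held 90.3% of the reads of the sum, so that group's level rests on 1 cell. Without it the log2 ratio of yolk sac over AGM for the sum went from -0.14 to -2.32. With each cell thinned to 690000 reads, the share in AGM was 27.9% of 43 cells, and it was still 0 in the 14 cells kept from each liver group. Hspa1a also overlaps the predicted gene Gm20481 on the opposite strand, over 2225 of its 2967 bases. Whether the counting used strand is not given in the sources used here. The sum would miss any reads left uncounted because they match several genes.

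Hsph1 encodes HSP110, an exchange factor for HSP70. In AGM the cells ran from 0 to 557.9 CPM with a median of 28.1, and 28 of 48 cells had a read. In yolk sac they ran from 0 to 241.5 CPM with a median of 63.6, and 13 of 16 cells had a read. In liver the median was 0 at both ages, with reads in 4 of 16 cells at E12.5 and 3 of 16 at E14.5.

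The liver cells that had Hsph1 reads ran from low to high. The E12.5 cells with reads were cells 16, 2, 1 and 13, at 325.4, 285.2, 86.0 and 7.30 CPM, and the E14.5 cells were cells 7, 1 and 11, at 269.3, 50.9 and 41.7 CPM. The groups overlapped, and what differed was mainly the share of cells with a read, which was 58.3% in AGM (43.2 to 72.4%) and 25% at E12.5 (7.27 to 52.4%). The pooled level was 83.8 CPM for AGM, 90.9 for yolk sac, 48.5 for E12.5 liver and 26.9 for E14.5 liver. At E12.5, cell 2 held 58.3% of the reads, and without it the log2 ratio over AGM went from -0.78 to -1.85. At E14.5, cell 7 held 74.1% of the reads. The ratio of E14.5 over E12.5, -0.83, turned to 0.25 without E12.5 cell 2 and to -2.54 without E14.5 cell 7, so its direction rests on single cells.

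Dnajb1 encodes HSP40, a J-domain partner of HSP70 that HSF1 also controls. Its cells ran from 0 to 549.5 CPM in AGM with a median of 195.5, from 0 to 751.6 in yolk sac with a median of 80.6, from 0 to 636.7 at E12.5 with a median of 127.0, and from 0 to 327.8 at E14.5 with a median of 55.6. The ranges overlapped widely, and 25 of 32 liver cells lay below the AGM median. Such counts, here and below, include the 5 liver cells with few genes or much globin RNA, and the matching share over all genes was not computed. Cells with a read numbered 43 of 48 in AGM, 15 of 16 for yolk sac, 12 of 16 for E12.5 liver and 10 of 16 for E14.5 liver. Pooled levels stepped down from 200.3 CPM for AGM to 152.6 for yolk sac, 123.9 for E12.5 liver and 74.2 for E14.5 liver. This was the only inducible member with a read in most cells whose yolk sac level was below AGM (log2 ratio -0.39), and 12 of 16 yolk sac cells were below the AGM median. The E14.5 ratio over E12.5 was -0.73, and -1.11 without the 5 liver cells with few genes or much globin RNA.

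Hsp90aa1 encodes the stress-inducible cytosolic HSP90, which is also made without stress. Cells ran from 162.1 to 3326 CPM in AGM with a median of 1333, from 254.3 to 2376 in yolk sac with a median of 1453, from 0 to 1520 at E12.5 with a median of 749.7, and from 326.4 to 1800 at E14.5 with a median of 828.2. The E11.5 groups were the higher pair and the liver groups the lower pair, with overlapping ranges, and 25 of 32 liver cells were below the AGM median. Pooled levels were 1302, 1389, 843.1 and 874.5 CPM, so that the AGM level was 1.54-fold the E12.5 level. Of its 50-base stretches 47.5% occur in another gene, mostly the pseudogene Gm12346, so its counts depend on how reads with several matches were treated.

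**Figure D2:**
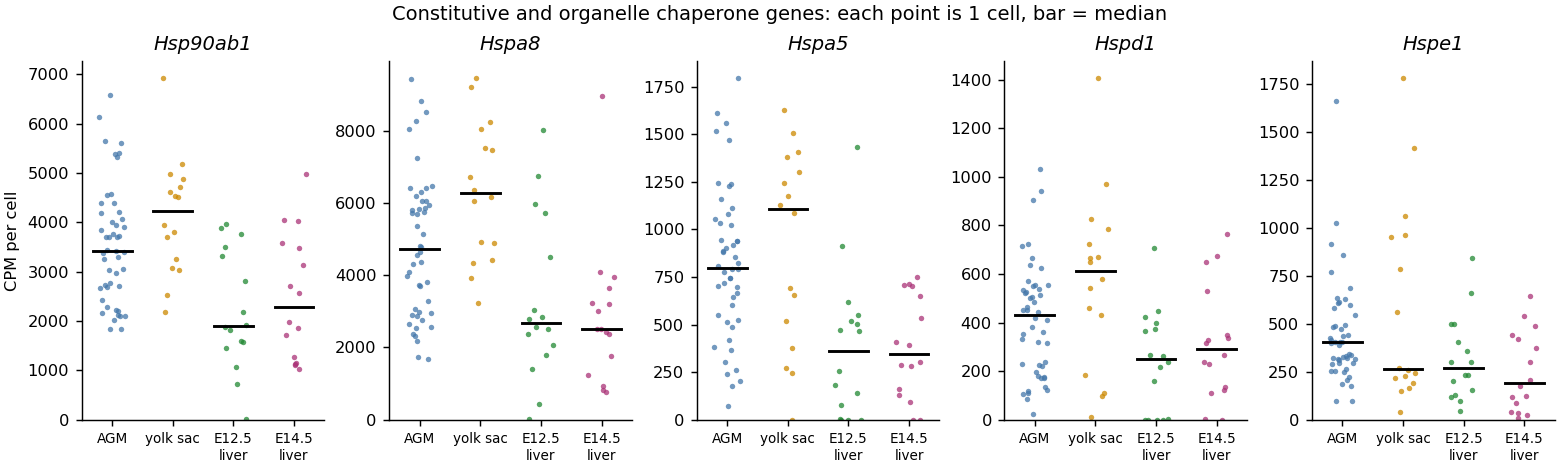
Level of the 5 constitutive and organelle chaperone genes in each cell (CPM, each point 1 cell, bar the group median, each panel on its own scale). The medians of Hsp90ab1, Hspa8, Hspa5 and Hspd1 are higher in yolk sac than in AGM and lower in both liver groups, and the Hspe1 median is lower in yolk sac than in AGM.

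Among the constitutive members, Hsp90ab1 encodes the HSP90 made in all growing cells. It ran from 1833 to 6573 CPM in AGM with a median of 3429, from 2178 to 6925 in yolk sac with a median of 4226, from 12.0 to 3966 at E12.5 with a median of 1894, and from 1035 to 4986 at E14.5 with a median of 2276. The lowest E12.5 value was from cell 8. The liver groups reached below the lowest AGM cell but overlapped with AGM, and 23 of 32 liver cells were under the AGM median. Per kb of exon its AGM level was 1223 CPM per kb, against 331.3 for Hsp90aa1 and 1145 for Hspa8, and in yolk sac (1417 against 1463) and at E12.5 (832.5 against 857.4) it was below Hspa8.

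Hspa8 encodes the constitutive cytosolic HSP70, HSC70. Cells ran from 1668 to 9417 CPM in AGM with a median of 4710, from 3241 to 9449 in yolk sac with a median of 6266, from 15.98 to 8001 at E12.5 with a median of 2680, and from 773.1 to 8962 at E14.5 with a median of 2513. Liver cells were mostly low, with 27 of 32 under the AGM median, but the highest cell of each liver group was near the top of the AGM range. E12.5 cell 2 held 21.5% of its group's reads and E14.5 cell 5 held 20.2%. Pooled levels were 4922, 6292, 3688 and 2792 CPM. Its AGM level of 1145 CPM per kb of exon compares with 1.72 for Hspa1a and 0.763 for Hspa1b, on the same scale. Of its 50-base stretches, 39.4% occur in another gene, mostly the pseudogene Gm15459.

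Hspa5 encodes BiP, the HSP70 of the ER. Cells ran from 72.2 to 1795 CPM in AGM with a median of 799.8, from 0 to 1629 in yolk sac with a median of 1105, from 0 to 1433 at E12.5 with a median of 362.1, and from 0 to 749.0 at E14.5 with a median of 347.2. Among the 8 members with reads in all groups it had the most liver cells under the AGM median, 30 of 32, including all 16 E14.5 cells. It was also the only one of the 8 for which the middle 50% of the AGM cells and of the next group down, E12.5, did not overlap. The gap was small, from 525.8 CPM at the upper edge of E12.5 to 543.6 CPM at the lower edge of AGM. The share of all genes with such a gap was not computed. Pooled levels were 824.1 CPM for AGM (816.9 to 831.4), 912.6 for yolk sac, 410.2 for E12.5 liver (401.1 to 419.4) and 364.5 for E14.5 liver. The AGM level was 2.01-fold the E12.5 level, at the edge of the 2-fold threshold, and the log2 ratio of -1.005 became -0.986 without E12.5 cell 8. None of its 50-base stretches occurs in another gene.

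Hspd1 and Hspe1 encode HSP60 and HSP10, the mitochondrial chaperonin and its lid, and start head to head on chromosome 1 with 112 bases of overlap. Hspd1 ran from 25.4 to 1031 CPM in AGM with a median of 432.1, from 11.2 to 1406 in yolk sac with a median of 613.9, from 0 to 705.8 at E12.5 with a median of 249.3, and from 0 to 764.9 at E14.5 with a median of 292.5. Hspe1 ran from 96.5 to 1661 CPM in AGM with a median of 402.7, from 39.3 to 1781 in yolk sac with a median of 264.4, from 44.8 to 843.2 at E12.5 with a median of 268.2, and from 8.75 to 643.1 at E14.5 with a median of 191.1. Below the AGM median lay 26 of 32 liver cells for Hspd1 and 22 of 32 for Hspe1, with overlapping ranges in both genes. The Hspe1 median at E12.5 was close to that in yolk sac.

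In yolk sac the pair parted. Pooled Hspd1 was 595.6 CPM against 425.2 in AGM, and its median was higher as well. Pooled Hspe1 was 523.3 CPM against 423.3, while its median was lower than in AGM, with a few yolk sac cells very high and 19.02% of the reads in cell 9 alone. E12.5 cell 8 had 843.2 CPM of Hspe1 and 0 reads of Hspd1, Hsp90aa1, Dnajb1 and Hsph1. With reads in 1011 genes and only 4 reads of Hspa8 and 3 of Hsp90ab1, this cell says little about the pair. Across cells the correlation of Hspd1 with Hspe1 was weak in all but the E14.5 group, with a Spearman rho of 0.25 over 48 AGM cells, -0.09 over 16 yolk sac cells, -0.01 over 16 E12.5 cells and 0.43 over 16 E14.5 cells. Shared stretches make up 42.1% of Hspd1 and 22.8% of Hspe1.

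For the order of the groups, the highest median among these 8 genes was in yolk sac for Hsph1, Hsp90aa1, Hsp90ab1, Hspa8, Hspa5 and Hspd1, and in AGM for Dnajb1 and Hspe1. For all neighbouring groups in these orders other than AGM and E12.5 for Hspa5, the middle 50% of the cells overlapped, so these steps are within the spread between cells.

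**Figure D3:**
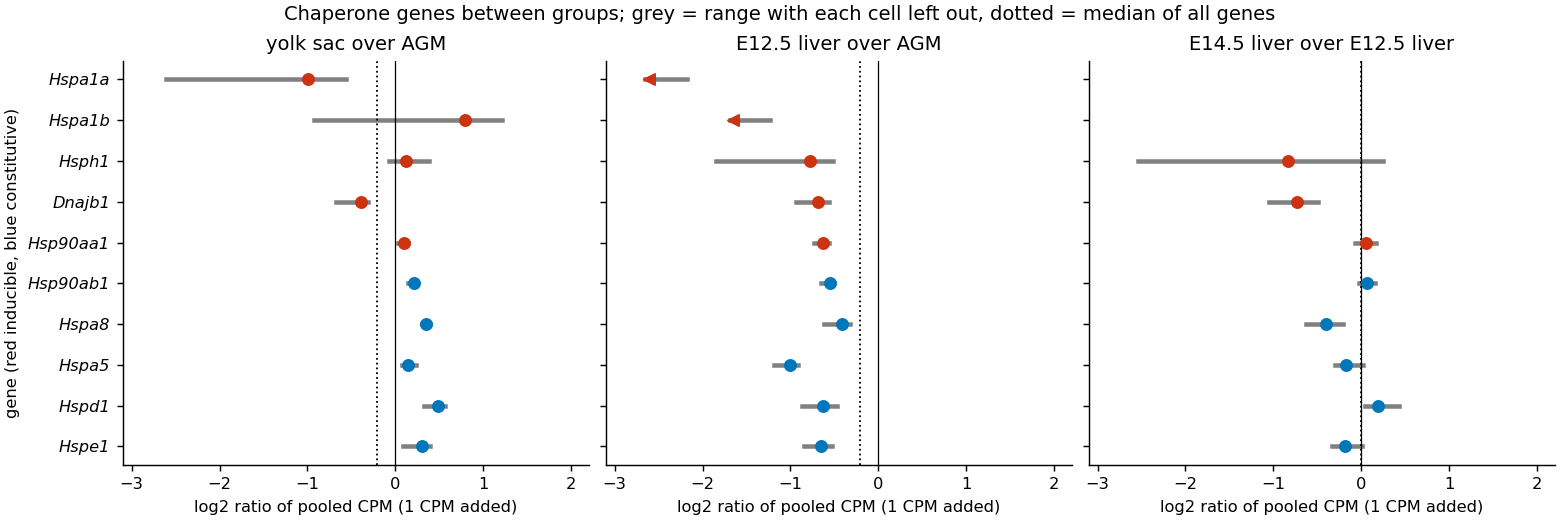
Log2 ratio of pooled CPM (1 CPM added) for each member in 3 comparisons, with the grey line from the lowest to the highest value with each cell left out in turn and the dotted line at the median of 15239 genes. Left-pointing triangles mark genes with 0 reads at E12.5, whose position depends on the added CPM. All members lie left of 0 in E12.5 liver over AGM.

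Yolk sac was first compared with AGM, which asks how pre-HSCs of the same age and gate differ between tissues. All 5 constitutive members were higher in yolk sac, beside 38.2% of all genes. Their log2 ratios of pooled level ran from 0.15 for Hspa5 to 0.49 for Hspd1, with a median of 0.31, the ratio of Hspe1. The Hspe1 ratio was 0.08 without yolk sac cell 9, and the median cell for Hspe1 was lower in yolk sac than in AGM. With AGM cells 1 to 16 only, the Hspa5 ratio was -0.03. The inducible members were mixed, with 3 higher and 2 lower and a median of 0.09. Of the 10 members, 0 were past 2-fold, while 8.61% of 15239 genes with at least 30 reads were higher past 2-fold and 21% were lower. The median over those genes was -0.20. Over 1213 genes with a read in at least 90% of cells it was -0.04, and 548 of them were higher. Among the 1213, counted up from the lowest ratio, Hspd1 ranked 1140, Hspa8 1061, Hspe1 1022, Hsp90ab1 941, Hspa5 863 and Hsp90aa1 796. Hspa1a and Hspa1b went opposite ways, at -0.996 and 0.79, and both values rest on yolk sac cell 12. Markers of other cell types differed as well, with all 8 endothelial genes lower in yolk sac (median -1.58, 6 past 2-fold). All 4 genes used from the hepatocyte list were higher past 2-fold (2.46). Their summed level was 0 in 8 of 16 yolk sac cells, with a median of 0.394 CPM and 780.3 CPM in the highest cell. The part of these markers in the member ratios was not tested.

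E12.5 liver was then compared with the same AGM cells, so the AGM values enter both comparisons. All 10 members were lower at E12.5, beside 57.6% of all genes. The 3 inducible members with reads in both groups were Hsph1 (log2 ratio -0.78), Dnajb1 (-0.69) and Hsp90aa1 (-0.63). The constitutive members were Hspa5 (-1.005), Hspe1 (-0.65), Hspd1 (-0.62), Hsp90ab1 (-0.55) and Hspa8 (-0.42). The medians were -0.78 for the inducible and -0.62 for the constitutive list, against -0.20 over all genes and -0.07 over the widely detected ones. The inducible median includes Hspa1a and Hspa1b, whose ratios depend on the added CPM. Among the 3 with reads in both groups the middle value was that of Dnajb1 (-0.69). With each cell of either group left out in turn, every member stayed lower at E12.5. The inducible median moved to -1.65, the ratio of Hspa1b, without E12.5 cell 2, and to -0.76 without E12.5 cell 8. Without that cell the constitutive median was -0.60, and 2 members, Hspa1a and Hspa1b, were past 2-fold.

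The size of these differences was modest. The 3 members past 2-fold were Hspa1a, Hspa1b and Hspa5, and with 26% of all genes lower past 2-fold and 15.6% higher this count is close to the background. Among the 1213 widely detected genes, 2.64% were lower past 2-fold. In that set, counted down from the highest ratio, Hspa5 ranked 1183, Hspe1 1127, Hsp90aa1 1119, Hspd1 1115, Hsp90ab1 1080 and Hspa8 987. The AGM level was 1.73-fold the E12.5 level for Hsph1, 1.62-fold for Dnajb1, 1.57-fold for Hspe1, 1.54-fold for Hspd1, 1.47-fold for Hsp90ab1 and 1.33-fold for Hspa8. For Hspa1a and Hspa1b alone the AGM level was 32.4-fold and 13.6-fold a floor of 3 reads over the E12.5 group. These values cover the counting of reads and not the spread between cells. Without AGM cell 17 the value for Hspa1b was 8.57-fold. The inducible and constitutive lists thus differed in the genes at 0, while their other members had ratios in the same range.

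E14.5 liver was compared with E12.5 liver, and the E12.5 cells enter this comparison as well as the last. Age and sort gate both change between these groups and cannot be told apart. Here the members did not move together. Dnajb1 was lower at E14.5 (-0.73), as was Hspa8 (-0.40), and both stayed lower with each cell left out. Hsp90aa1 (0.05) and Hsp90ab1 (0.06) were nearly level, Hspd1 was slightly higher (0.19), and Hspa5 (-0.17) and Hspe1 (-0.18) slightly lower. Of these 5, only Hspd1 kept its direction with every cell left out. The inducible median was -0.73 over the 3 members with reads and 0 over all 5, since Hspa1a and Hspa1b had 0 reads at both ages, and it was 0.16 without E12.5 cell 2. The constitutive median was -0.17, and it was 0.11 without the 5 liver cells with few genes or much globin RNA. Without those cells Dnajb1 was past 2-fold (-1.11), Hsph1 (-0.52) and Hspa8 (-0.35) were lower, Hspa5 (-0.04) and Hsp90aa1 (0.09) were nearly level, and Hspe1 (0.11), Hsp90ab1 (0.24) and Hspd1 (0.39) were higher. Of the members in the full groups, 0 were past 2-fold, while 18.7% of all genes were higher and 18.2% lower past 2-fold. The median over all genes was 0, and over widely detected genes -0.13.

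Other genes of the chaperone network were described from lists chosen by function. Their counts are read against all 15239 genes, of which 38.2% were higher and 59.8% lower in yolk sac than in AGM, 40.5% higher and 57.6% lower at E12.5 than in AGM, and 40.8% higher and 45.5% lower at E14.5 than at E12.5. The cytosolic chaperonin, whose 8 subunits fold actin and tubulin, had all 8 genes higher in yolk sac than in AGM (median 0.33), all 8 lower at E12.5 than in AGM (-0.44) and all 8 higher at E14.5 than at E12.5 (0.46), with 0 past 2-fold in each. Cct2, for example, was at 353.9 CPM for AGM, 472.6 for yolk sac, 222.8 for E12.5 liver and 322.9 for E14.5 liver. Of 11 HSP90 co-chaperones, 10 were lower at E12.5 than in AGM (median -0.37) and 10 were higher at E14.5 than at E12.5 (0.29). Fkbp4, an HSP90-binding immunophilin, was at 1185 CPM in AGM, 706.3 at E12.5 and 1043 at E14.5, and Stip1, which links HSP70 to HSP90, was at 278.96 CPM at E12.5 and 404.7 at E14.5. Without the 5 liver cells with few genes or much globin RNA, 9 of the 11 co-chaperones were higher at E14.5 (0.46), beside 0.24 for Hsp90ab1 and 0.09 for Hsp90aa1, and all 8 chaperonin genes were still higher (0.52). Without E12.5 cell 8, 9 of the 11 co-chaperones (-0.35) and all 8 chaperonin genes (-0.42) were lower at E12.5 than in AGM.

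Hsf1, the gene of the main heat shock factor, was at 100.5 CPM for AGM, 77.3 for yolk sac, 51.0 for E12.5 liver and 81.5 for E14.5 liver, and its inhibitor Hsbp1 was at 401.8, 233.7, 327.8 and 262.0 CPM. Together with Hsf2, which encodes a second heat shock factor, all 3 were lower than AGM in yolk sac (median -0.78) and at E12.5 (-0.95). Of 11 other HSF1 target genes, 10 were lower at E12.5 than in AGM (median -0.59). Of these, 4 were past 2-fold, which is near the 26% of all genes lower by that much. Serpinh1, the collagen chaperone HSP47, was at 106.9 CPM in AGM and 3.88 at E12.5. Hspb1, a small heat shock protein gene, was at 14.8 CPM in AGM with a read in 20.8% of cells and had 0 reads in both liver groups. Dnaja1, a J-domain protein gene, was at 884.7 CPM in AGM and 588.2 at E12.5.

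Of 23 ER chaperone and unfolded protein response genes, 19 were lower at E12.5 than in AGM, with a median of -0.54 against -1.005 for Hspa5, and the count was the same without E12.5 cell 8. Atf4, the transcription factor of the integrated stress response, was at 368.5 CPM in AGM, 82.8 at E12.5 and 171.8 at E14.5. Xbp1, the factor spliced on ER stress, went the other way, with 107.1 CPM in AGM, 218.02 at E12.5 and 61.2 at E14.5. In E12.5 liver, cell 11 held 38.8% of the Xbp1 reads, and leaving it out took the ratio over AGM from 1.02 to 0.45. Its E14.5 over E12.5 ratio, -1.82, ran from -2.88 without E14.5 cell 7, which held 56.6% of the reads, to -1.25 without E12.5 cell 11. Of 12 mitochondrial chaperone and protease genes, 7 were lower and 5 higher at E12.5, with a median of -0.19, about the share and median of all genes. Hspa9, the mitochondrial HSP70, was at 336.9 CPM in AGM and 528.9 in yolk sac, the same direction as Hspd1. J-domain and exchange factor genes showed no common direction at E12.5, with 8 higher and 6 lower (0.07), though Hspa4, a relative of Hsph1, was at 208.3 CPM in AGM and 79.6 at E12.5. Cell 2 held 57.3% of the E12.5 reads of Hspa4, and without it the log2 ratio went from -1.38 to -2.44. Of 6 prefoldin genes, 5 were lower at E12.5, with a median of -0.10.

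Immediate-early genes, which many cell stimuli switch on within minutes, were also lower in E12.5 liver than in AGM. This held for all 13, of which 12 were past 2-fold, beside 26% of all genes lower past 2-fold. Their median was -2.35, and both counts were the same without E12.5 cell 8. Atf3 was at 87.0 CPM in AGM and had 0 reads at E12.5, Fosb was at 54.96 CPM in AGM and 0.105 at E12.5 from 2 reads, and Btg2 was at 94.0 CPM in AGM and 1.42 at E12.5, where its log2 ratio of -5.297 went to -6.22 without E12.5 cell 1. In yolk sac 8 of the 13 were lower than in AGM, with a median of -0.61, a count near the share of all genes lower there. Their part in the result on the heat shock genes was not tested. Markers of other cell types also differed between AGM and E12.5, with 7 of 8 endothelial genes lower (median -1.72), 5 of 6 erythroid genes higher (3.34) and all 5 macrophage genes used higher (3.998). E12.5 cell 8 held 72.6% of the macrophage marker reads of its group and was the cell at 13667 CPM. Without it the macrophage median was -0.02, with 2 genes higher and 3 lower, and the endothelial and erythroid medians were -1.697 and 3.355. Between E14.5 and E12.5 the erythroid median was 6.18, and -1.79 without the 5 liver cells. The member ratios without these cells are given above, and the part of the markers in them was not tested otherwise.

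**Figure D4:**
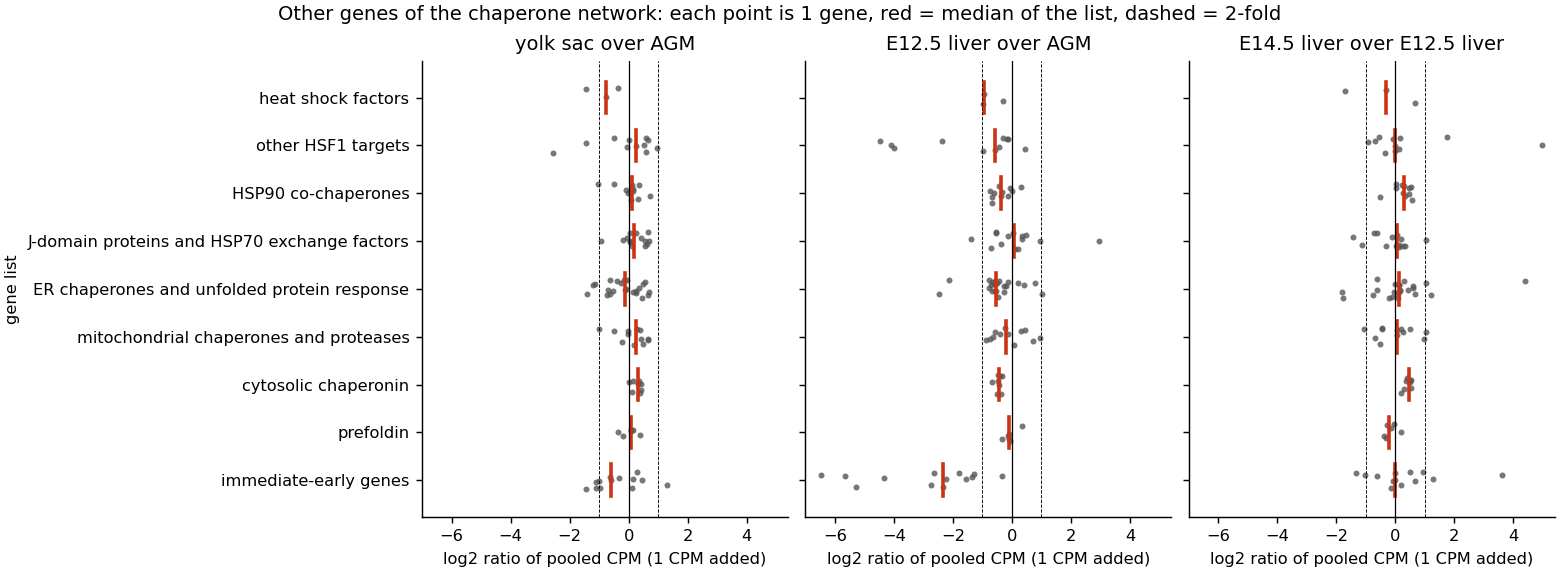
Log2 ratio of pooled CPM (1 CPM added) of each gene in 9 lists around the chaperone members, in 3 comparisons (grey points genes, red bar the list median, dashed lines 2-fold). The chaperonin genes lie close together and on one side of 0 in each panel, and the immediate-early genes spread to the lowest ratios in E12.5 liver over AGM.

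Within a group the members were only loosely coupled from cell to cell. Over 28 pairs of the 8 members with reads in all groups, the median Spearman rho of CPM was 0.18 across 48 AGM cells, 0.09 across 16 yolk sac cells, 0.10 across 16 E12.5 cells and 0.25 across 16 E14.5 cells. Cells of a group share library preparation and differ in depth, and these values are descriptions. In AGM 24 of the 28 pairs were positive, and the highest were Hsp90aa1 with Hspe1 and with Hsph1, at 0.49 each. The pair Hsp90aa1 and Hsp90ab1 had 0.24 for AGM, 0.07 for yolk sac, 0.71 for E12.5 liver and 0.48 for E14.5 liver. Hsp90ab1 and Hspd1 reached 0.80 at E14.5. Dnajb1 had no pair above 0.20 in AGM.

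**Figure D5:**
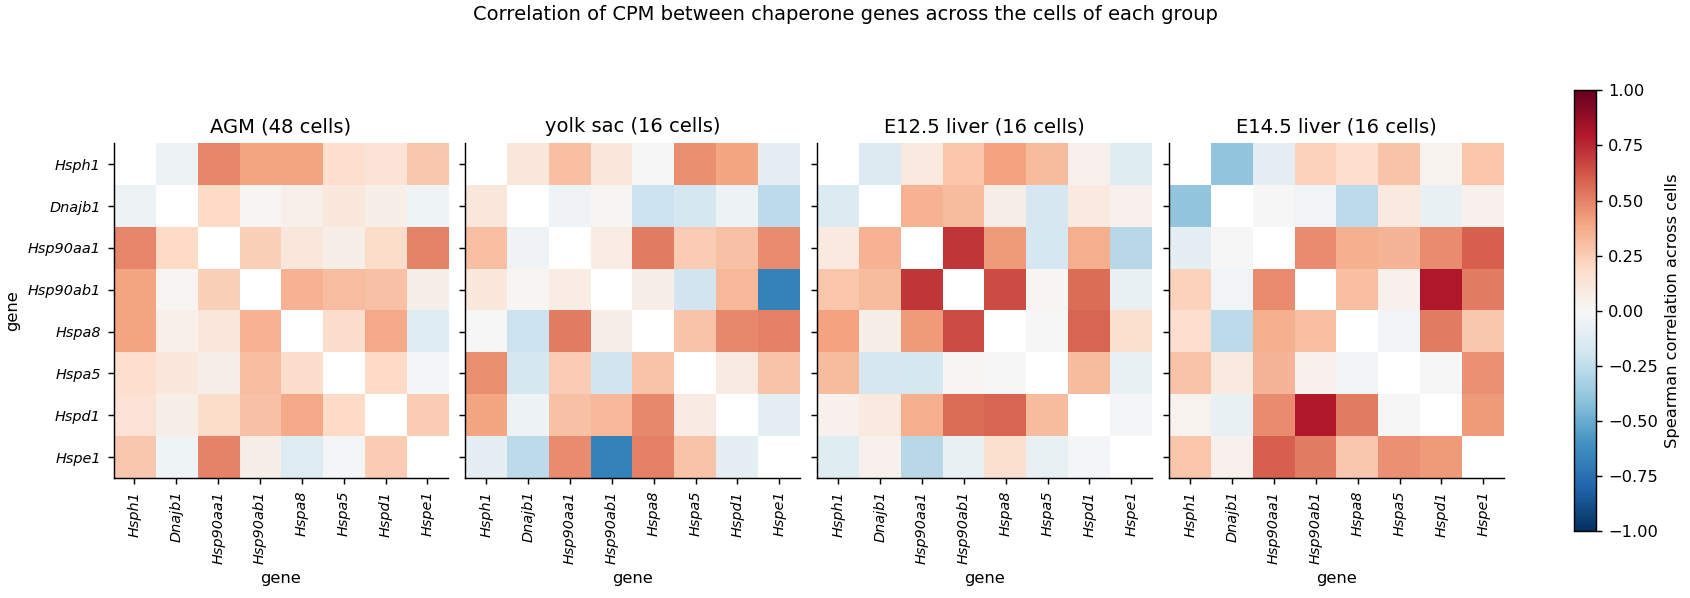
Spearman correlation of CPM across the cells of each group for each pair of the 8 members with reads in all groups (red positive, blue negative, diagonal left white). AGM values lie between -0.13 and 0.49, and the 16-cell groups spread more widely, from -0.67 to 0.80.

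The genes most like each member across AGM cells were sought among 5343 genes with a read in at least 50% of those cells, by Spearman rho of CPM. For Hsp90ab1 the first was Fkbp4, with 0.60 for AGM, 0.82 for yolk sac, 0.57 for E12.5 liver and 0.56 for E14.5 liver. For Hspe1 they were Snrpg (0.69), Cox8a (0.68) and Rps25 (0.67), and Rps25 had 0.88 for yolk sac, 0.56 for E12.5 liver and 0.70 for E14.5 liver. Hspe1 itself had a rho of -0.62 with the number of genes detected across E12.5 cells and -0.31 with reads across AGM cells. For Hspd1 the first was Nop16, with 0.66 for AGM, 0.73 for yolk sac, 0.44 for E12.5 liver and 0.39 for E14.5 liver. For Hspa5 they were Slc43a1 (0.58), Pdia3 (0.57) and Cdpf1 (0.54), and Pdia3, an ER protein disulfide isomerase gene, had 0.66 at E14.5 but 0.26 in yolk sac and 0.02 at E12.5. For Hspa8 they were Umps, Spns2 and Racgap1, at 0.58, 0.58 and 0.57, with 0.36 or less in the other groups. For Hsph1, Dnajb1 and Hsp90aa1 the first genes were Ppp6r1 (0.51), Stard4 (0.56) and Hspe1 (0.49), and each was below 0 in at least 1 liver group.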

How the data were processed

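Per the labels, single sorted cells gave cDNA with a SMART-Seq kit, which a transposome cut and tagged before 12 PCR cycles. The submitters' processing notes name FastQC, Trimmomatic 0.36, STAR, HTSeq and the mm10 build. Strand and multiple-match settings are not given in the sources used here. The deposited values are raw counts of reads for each gene in 96 cells, without molecular identifiers. All 96 columns were matched to samples by name. Of 19949 rows, 113 shared a symbol with an earlier row and were summed.

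Reads were summed over the cells of each group and scaled to CPM, with exact 95% Poisson intervals on pooled CPM and exact Clopper-Pearson intervals on shares of cells. Log2 ratios had 1 CPM added, which understates changes of low genes. A gene was counted as past 2-fold at a log2 ratio of at least 1 in size. Cells needed 1000 genes, which removed 0. Where a group had 0 reads, a floor of 3 reads over the group was used, and for shares 3 cells. Members with at most 3 reads in both groups of a comparison were left out of its median, a step chosen after seeing the data. PCR reads are not independent molecules, so intervals cover counting error only. Doublets were not called, with 1 cell sorted per well.

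Positions and exon lengths come from GENCODE vM21, whose gene identifiers matched all 10 members with version, as did 15064 of 17793 Ensembl identifiers in the table. Promoters come from RefSeq (GRCm38.p6). Hsp90aa1, Hsp90ab1 and Hspa8 had no entry. Sharing was measured over 50-base stretches of transcripts.

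The members and lists were chosen with earlier results of these data known. The named genes were all members, at most 3 genes per list and comparison with the largest log2 ratio among those detected in at least 50% of cells in the group with the higher level, and the 3 genes most correlated with each member in AGM. Hspb1 falls outside the rule and was chosen after its values were seen. The lists were heat shock factors (Hsf1, Hsf2, Hsbp1), other HSF1 targets, HSP90 co-chaperones, J-domain proteins and exchange factors, ER chaperones and unfolded protein response, mitochondrial chaperones and proteases, cytosolic chaperonin, prefoldin and immediate-early genes. Hsf4, Hspa1l, Alb and Serpina1a were not analysed here, and Hspb8 and Adgre1 had under 30 reads. The calculation was tested on simulated Poisson counts without the spread between cells seen here, which says nothing about ratios that rest on single cells. Python 3.11.15, numpy 2.4.6, pandas 2.3.3, scipy 1.17.1, matplotlib 3.10.9 and biopython 1.88 were used.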

Additional observations from a re-analysis of the deposited data

How the results depend on the processing

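Each median and count was recomputed under 10 alternatives. Of 90 such values, 66 stayed within the counting interval of the main value or, for counts, within 1.5 times. Part of these 66 could not change, so the number overstates the agreement. Dropping the minimum on reads touches only the median of all genes. Leaving out liver cells cannot change yolk sac over AGM, and the choice of AGM cells cannot change E14.5 over E12.5. A minimum of 2000 genes removed no AGM or yolk sac cell. Chosen after seeing the data was 1 alternative, leaving out E12.5 cell 8 and E14.5 cells 3, 8, 13 and 16. The lists of other genes without these cells and the omission of members with at most 3 reads were also chosen then. So was leaving out single cells for listed genes and for the fold values of Hspa1a and Hspa1b over the floor. With all 5 inducible members, as the design was written, the E14.5 over E12.5 median was 0. No paired analysis was possible because the labels name no animal, litter or batch that a shared number could stand for, and no result comes from a test. Of 28 member ratios, 24 kept their sign under every alternative and 21 with each cell left out; 10 CPM added moved the median of all genes by 0.13 in both comparisons with AGM.

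For yolk sac over AGM, the inducible median of 0.09 became 0.19 with median-of-ratios scaling, -0.0078 with thinned cells, -0.0039 without the deepest cell of each group and 0.16 with AGM cells 1 to 16, and ran from -0.34 to 0.15 with each cell left out. The constitutive median became 0.40, 0.36 (averaged CPM), 0.36 (thinned) and 0.37 (AGM cells 1 to 16), and ran from 0.22 to 0.39. The count past 2-fold was 1 with CPM averaged over cells and with thinned cells, and 0 to 2 with each cell left out. For E12.5 over AGM, the inducible median became -0.91 with averaged CPM, -0.62 with 10 CPM added and -1.68 without the deepest cells, and ran from -1.65 to -0.66. The values -1.68 and -1.65 are ratios of Hspa1b, which had 0 reads at E12.5, so they depend on the added CPM. The constitutive median became -0.68 with averaged CPM and -0.69 with thinned cells, and ran from -0.70 to -0.52. The count was 0 with 10 CPM added, and 2 to 4 with each cell left out. For E14.5 over E12.5, the inducible median became -0.56 with averaged CPM, 0.21 without the deepest cells and -0.52 without the 5 doubted cells, and ran from -0.86 to 0.16. The constitutive median became -0.0053, -0.091 and 0.11 in the same order, and ran from -0.26 to 0.016. The count was 1 with thinned cells and without the 5 doubted cells, and 0 to 1 with each cell left out. The cause of these shifts was not tested. With 16 cells in a liver group, finding 0 leaves a share of up to 20.6% of cells with a read of Hspa1a or Hspa1b possible.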
